A study of Mus musculus with 14 samples.

Results

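The 8 genes described here are the glucocorticoid receptor gene Nr3c1 and 7 genes known as targets of that receptor: Fkbp5, Tsc22d3, Klf9, Per1, Sgk1, Ddit4 and Acer2. They were taken by gene symbol from a table of 14329 genes, and all 8 were in it. They were chosen by the difference of their levels between TASTPM and WT mice under control serum, so that comparison, and the serum comparisons that use the same libraries, are given below for these genes as a description without a test. Dorsal horn microglia, the resident macrophages of the spinal cord, were sorted as CD45low CD11b+ Ly6C- CCR2- CX3CR1+ cells from lumbar cord on day 5 after serum transfer (ST), and RNA from 2000 cells per sample was sequenced. K/BxN serum transfers an autoantibody-driven arthritis to the recipient, and control serum was pooled from KRN/C57 mice. All mice were 6 months old, and both sexes were used. WT mice were C57BL/6, and TASTPM mice were heterozygous for human transgenes driven by the neuronal Thy-1 promoter, among them APP with the Swedish mutation. The 14 libraries comprised 3 from WT Control ST, 3 from TASTPM Control ST, 4 from WT K/BxN ST and 4 from TASTPM K/BxN ST. A library holds the RNA of sorted cells in bulk, so fewer cells of a type and less RNA per cell cannot be told apart. Per the study's methods, replicates are individual mice, with 3 or 4 mice per group.

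Glucocorticoids enter the cell and bind a receptor that is held in the cytoplasm by Hsp90 and its co-chaperones. The bound receptor moves to the nucleus, binds paired half-sites in DNA and raises the transcription of targets, among them brakes on the hormone signal itself, while lowering that of many inflammatory genes. Microglia express the receptor at a high level, and the hormone restrains their inflammatory output.

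The paired half-site of the receptor, read here as AGAACA, 3 bases of any kind and TGTTCT, was searched on both strands of the mouse genome (GRCm39) from 10000 bases before each gene to 10000 bases after it. It is shown first because it is the DNA element that these genes are known for. It occurred in 2 of the 8 genes, at 2 places in Fkbp5 and 1 in Sgk1, all in introns, and in none of the other 6. Of genome windows as long as the searched Fkbp5 and Sgk1 regions, 3.18% and 3.14% hold the motif. The 3 matches are printed 5′ to 3′ on the strand of the gene with 18 bases on either side, and the half-sites are in capitals.
Fkbp5, chr17:28639277-28639327, minus strand: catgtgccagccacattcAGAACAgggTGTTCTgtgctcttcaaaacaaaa
Fkbp5, chr17:28661375-28661425, minus strand: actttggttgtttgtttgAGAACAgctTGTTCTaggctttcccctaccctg
Sgk1, chr10:21869582-21869632, plus strand: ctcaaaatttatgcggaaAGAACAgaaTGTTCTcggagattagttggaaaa

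The Sgk1 match lies 189 bases before 1 of the alternative Sgk1 start sites in the RefSeq promoter table (GRCm38.p6), which held 7 of the 8 genes and covers 250 bases before to 50 bases after each start. The whole site was in 3 of the 32851 promoters of that table, 0.00913%. Counted per gene, with any of its promoters, the half-site AGAACA was in 21.3% of all genes and in 2 of the 7, Sgk1 and Tsc22d3. Sgk1 has 6 promoters in the table and Tsc22d3 has 3. The clock E-box CACGTG was in 8.09% of all genes and in 3 of the 7, Fkbp5, Per1 and Sgk1, and the CREB element TGACGTCA was in 2.03% and in none of the 7. A match in letters is a description and not a bound site. All motifs were searched on both strands, each whole site also counts as a half-site, and the E-box of Sgk1 overlaps a half-site. The 2 short stretches below show the half-site before Tsc22d3 and the E-box before Fkbp5 in capitals, on the strand of the gene and placed on GRCm39.
Tsc22d3, chrX:139501433-139501474, minus strand: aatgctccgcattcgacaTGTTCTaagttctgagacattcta
Fkbp5, chr17:28705269-28705310, minus strand: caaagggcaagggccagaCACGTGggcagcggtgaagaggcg

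The libraries held 14223015 to 20239175 reads on genes. Values below are normalized counts, reads scaled to a common depth by a single factor per library. 12645 genes had at least 10 reads in at least 7 libraries and were tested, 7 of the 8 members among them; Acer2 was not. Microglial markers were abundant in every library, with Csf1r the highest of the 10 listed. Their sum was 955389 to 1279770 under Control ST and 332236 to 1176850 under K/BxN ST. In 4 of the 8 K/BxN ST libraries, 2 of each genotype, the classical monocyte gene Ly6c2 stood at 12898 to 29133 normalized counts, against at most 17.8 in the other 10, although the sort selected cells without Ly6C and CCR2 on their surface. All 10 monocyte markers were in the table, and their sum ran from 8964 to 23370 in the 6 Control ST libraries and from 9342 to 644508 and 10750 to 683345 in WT and TASTPM K/BxN ST. Neutrophil markers reached 222603 in WT K/BxN ST and 200407 in TASTPM K/BxN ST, against at most 11935 under Control ST. The members and the list counts under K/BxN ST are therefore also given without those 4 libraries or within the 2 classes, which hold 2 libraries of each genotype. Xist and Y-linked genes were uneven as well: 2 of the 3 TASTPM Control ST libraries had high Xist and 1 had Y-linked genes, while 2 of the 3 WT Control ST libraries had Y-linked genes and 1 had both. In WT K/BxN ST the 2 libraries with monocyte markers were the 2 with Y-linked genes, so those classes cannot be told apart there, and in TASTPM K/BxN ST 3 of the 4 had Y-linked genes.

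Under control serum, Fkbp5, Tsc22d3, Per1 and Ddit4 stood higher in all 3 TASTPM libraries than in all 3 WT libraries, while the ranges of the receptor gene and Sgk1 overlapped. Nr3c1 (ENSMUSG00000024431), the glucocorticoid receptor, was at 3682, 5224 and 3850 normalized counts in WT Control ST and at 3349, 4441 and 4203 in TASTPM Control ST. The groups overlapped, and the difference was -0.08 ± 0.22 (SE) on the log2 scale of counts plus 1.

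Fkbp5 (ENSMUSG00000024222; chr17:28618058-28737521) encodes a co-chaperone of Hsp90 that lowers the affinity of the receptor for its hormone and is itself induced by the receptor. It was at 2151, 1013 and 954 normalized counts in WT Control ST and at 6738, 6540 and 8013 in TASTPM Control ST. Every TASTPM library lay above every WT library, the means were 5.17-fold apart, and the log2 difference was 2.47 ± 0.52 (SE, n = 3 each). Tsc22d3 (ENSMUSG00000031431; chrX:139440091-139501408), or GILZ, carries much of the anti-inflammatory action of the hormone by binding NF-kB and AP-1. Its 3 WT libraries read 8999, 8417 and 4332 normalized counts and its 3 TASTPM libraries 16799, 20706 and 20779. These groups did not overlap either, and the log2 difference was 1.49 ± 0.29 (SE).

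Klf9 (ENSMUSG00000033863; chr19:23118187-23148497) and Per1 (ENSMUSG00000020893; chr11:68986035-69002300) are transcriptional regulators, Klf9 a Kruppel-like repressor and Per1 a repressor of the circadian clock, and both were scarce. Per1 was at 127, 111 and 43.9 normalized counts in WT Control ST and at 135, 255 and 332 in TASTPM Control ST, which did not overlap although the closest libraries were near each other. Its log2 difference was 1.39 ± 0.50 (SE), and 0.91 without WT Control ST library 3. Klf9 was at 0.937, 36.0 and 67.8 normalized counts in WT Control ST, the first of these a single read, and at 37.6, 93.3 and 642 in TASTPM Control ST. The Klf9 groups overlapped, and the log2 difference was 2.96 ± 1.31 (SE). It was 1.40 without the WT library that held a single read and 1.82 without the TASTPM library at 642, and it ran up to 3.97 over the other libraries left out.

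Sgk1 (ENSMUSG00000019970; chr10:21758083-21875802), a kinase of ion transport and cell survival, and Ddit4 (ENSMUSG00000020108; chr10:59785491-59788492), or REDD1, an inhibitor of the growth kinase complex mTORC1, differed from each other. Sgk1 was at 14925, 10935 and 12488 normalized counts in WT Control ST and at 19579, 12446 and 13532 in TASTPM Control ST. Those groups overlapped, with a log2 difference of 0.23 ± 0.49 (SE). This was 0.03 without TASTPM Control ST library 1 and -0.36 with a score of sex-linked genes as covariate. Ddit4 was at 130, 47.8 and 12.4 normalized counts in WT Control ST and at 162, 473 and 680 in TASTPM Control ST. Every TASTPM library was above every WT library, by 3.09 ± 1.02 (SE) on the log2 scale, and this ran from 2.23 without WT Control ST library 3 to 3.87 without library 1. Acer2 (ENSMUSG00000038007; chr4:86792537-86853061), a Golgi ceramidase, had 0 reads in all 3 WT Control ST libraries and 11, 41 and 0 reads in TASTPM Control ST. Its TASTPM mean was at least 6.63-fold above the level that 3 reads per library would give in WT.

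In all, 4 of the 7 members that were tested, Fkbp5, Tsc22d3, Per1 and Ddit4, had every TASTPM Control ST library above every WT Control ST library. The same was true of 4.97% of all genes tested, and nothing is read from that contrast since the members were chosen with it in view. No gene of the 12645 was called in it by limma (0%), where a call needs an adjusted p below 0.05 and an absolute log2 fold change above 1. At an unadjusted p below 0.05 limma had 704 genes (5.57%), and edgeR called 0 and DESeq2 41. Markers of other cells also differed between these 6 libraries. The sum of border macrophage markers, 7 of 8 of them in the table, was 93.9 to 216 normalized counts in WT and 201 to 1915 in TASTPM, and its F13a1 and Cd163 did not overlap; Cd163 is also a target of the receptor. The sum of 5 red cell markers, led by Hba-a1, was 1513 to 41819 in WT and 508 to 1205 in TASTPM, without overlap, and none of either list was at 0 in all libraries. WT Control ST library 3 had the highest red cell sum and the lowest Fkbp5, Tsc22d3, Per1 and Ddit4 of the 3 WT libraries. That library was also the one with both Xist and Y-linked genes. It had the highest neutrophil genes S100a8 and S100a9 of the 3, at 969 and 1525 normalized counts. The part of these cells in the member levels was not tested. Among the Y-linked libraries alone, the TASTPM library read 8013 for Fkbp5 and the 2 WT libraries 2151 and 1013.

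**Figure D1:**
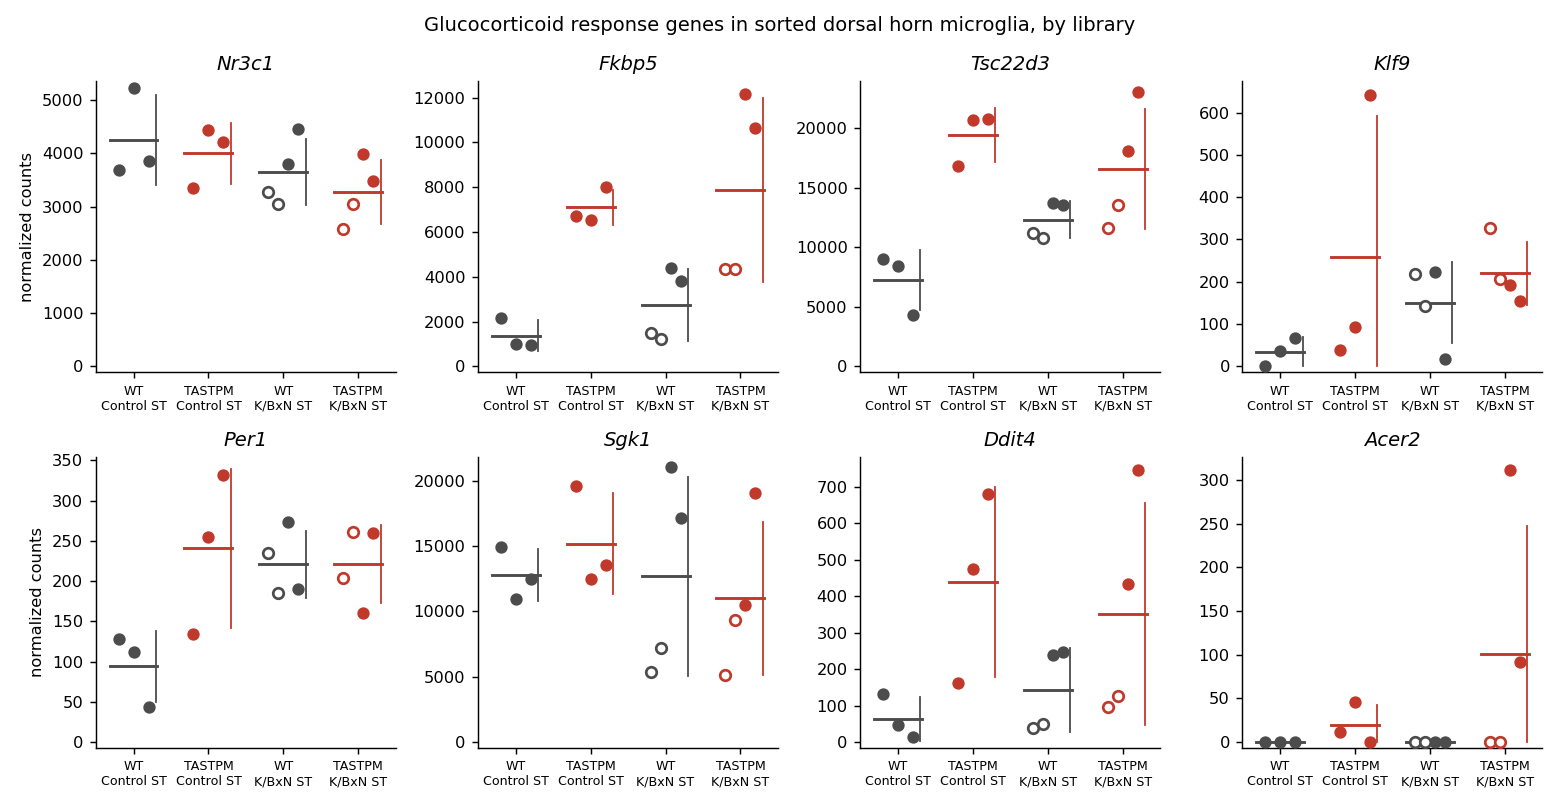
Normalized counts (linear axis from 0) of the 8 genes in each of the 14 libraries, by genotype and serum, with bars at group means and vertical lines of 1 SD, drawn no lower than 0; open circles mark the 4 K/BxN ST libraries with high Ly6c2. Fkbp5 sits between 6540 and 8013 in the 3 TASTPM Control ST libraries and between 954 and 2151 in WT, while the ranges of Nr3c1 overlap between the genotypes under each serum.

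Per kilobase of annotated exon, the order of the genes within a group also differed. In WT Control ST, Sgk1 was highest at 2125 ± 334 normalized counts per kilobase (SD, n = 3), ahead of Tsc22d3 at 1170 ± 411, Nr3c1 at 540 ± 107 and Fkbp5 at 124 ± 61.0, and none of these neighbours overlapped. Ddit4 at 23.4 ± 22.3, Per1 at 12.3 ± 5.79 and Klf9 at 4.25 ± 4.07 followed, each overlapping the next. In TASTPM Control ST, Tsc22d3 led at 3137 ± 368 normalized counts per kilobase with Sgk1 at 2525 ± 639, which overlapped it. Fkbp5 at 641 ± 72.2 then stood above Nr3c1 at 508 ± 72.9 without overlap, the reverse of their order in WT. Ddit4 followed at 161 ± 96.0, and Per1 and Klf9, both at 31.4, overlapped. Exon lengths were those of a later annotation than the one used for counting, and they take no account of which isoforms were present.

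Under K/BxN serum the difference of genotypes rests on 8 libraries that the first contrast did not use. Its standard errors and limma p values use a spread shared by all 14 libraries, among them those by which the members were chosen. The members were also chosen with earlier results of these data known. The mean of Fkbp5 was higher in TASTPM, 7875 ± 4122 against 2722 ± 1608 normalized counts (SD), and log2 differences were above 0 for 4 of the 7 members, beside 49.9% of all genes. None of the 7 members tested was called by limma, as was none of all genes (0%, with 241 genes or 1.91% at an unadjusted p below 0.05, and 0 called by edgeR or DESeq2), and none had every TASTPM library above every WT library, beside 1.16% of all genes. In simulated data of this comparison, limma called 79.5% of genes changed by 3 on the log2 scale. No member differed by more than 1.59 here, and changes of that size were not simulated. The simulated libraries also had no monocyte or sex-linked classes.

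Fkbp5 was at 1470, 1225, 4392 and 3800 normalized counts in WT under K/BxN ST and at 4349, 4345, 12172 and 10633 in TASTPM K/BxN ST. The groups overlapped: 2 of the 4 TASTPM libraries lay above every WT library, and the other 2 lay just below the highest WT library and above the other 3. The log2 difference was 1.59 ± 0.45 (SE, n = 4 each), with an unadjusted limma p of 0.00313 and an adjusted p of 1.00, and the two-sided exact permutation test over 70 splits gave p = 0.0857. At an unadjusted p below 0.05 with a higher level in TASTPM, 1 of the 7 members stood beside 1% of all genes. The level also moved with the monocyte markers within each genotype. In the 2 TASTPM and 2 WT libraries with high Ly6c2, Fkbp5 averaged 4347 and 1347 normalized counts, a ratio of 3.23, and in the other 2 and 2 it averaged 11403 and 4096, a ratio of 2.78. TASTPM lay above WT within both classes, of 2 libraries against 2, an order whose share over all genes was not counted. Without the 4 libraries with monocyte markers the log2 difference was 1.48 ± 0.33 (SE) with an adjusted p of 1.00. Over 20 alternatives the log2 difference ran from 1.27 to 1.89 and the adjusted p from 0.257, with a score of monocyte and neutrophil markers as covariate, to 1.00.

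Tsc22d3 was at 11203, 10760, 13724 and 13570 normalized counts in WT under K/BxN ST and at 11659, 13564, 18061 and 23034 in TASTPM K/BxN ST. The groups overlapped, and the log2 difference of 0.39 ± 0.25 (SE) did not pass (adjusted p = 1.00, limma) and was 0.21 without TASTPM K/BxN ST library 4. TASTPM was 1.15-fold above WT among the libraries with monocyte markers and 1.51-fold among the others, in both classes without overlap. Each class holds 2 libraries of each genotype, so nothing is read from a lack of overlap within it. Ddit4 was at 38.8, 49.6, 239 and 248 normalized counts in WT and at 94.6, 127, 432 and 745 in TASTPM. It differed by 1.26 ± 0.88 (SE) on the log2 scale over all 8 libraries, with overlap, and was 2.51-fold and 2.42-fold higher in TASTPM within the 2 classes, with none. The log2 difference was 0.74 without TASTPM K/BxN ST library 4 and 0.80 without WT K/BxN ST library 1.

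Klf9 was at 218, 143, 223 and 17.4 normalized counts in WT under K/BxN ST and at 328, 205, 191 and 153 in TASTPM K/BxN ST, a log2 difference of 0.99 ± 1.14 (SE). This was 0.14 without WT K/BxN ST library 4, and within the 2 classes TASTPM was 1.48-fold and 1.43-fold of WT, with overlap in both. Per1 was at 235, 185, 274 and 190 normalized counts in WT and at 204, 262, 161 and 259 in TASTPM. Its 2 groups overlapped, and the 95% interval of the log2 difference was -0.92 to 0.91, with ratios of 1.11 and 0.908 within the classes. Sgk1 was at 5351, 7198, 21028 and 17154 normalized counts in WT and at 5111, 9345, 10453 and 19062 in TASTPM, with a log2 difference of -0.14 ± 0.43 (SE) and ratios of 1.15 and 0.773 within the classes. The 4 libraries with high Ly6c2 held its 4 lowest values under K/BxN ST. Nr3c1 was at 3270, 3056, 3803 and 4451 normalized counts in WT and at 2572, 3040, 3980 and 3478 in TASTPM, and the 95% interval of its log2 difference was -0.57 to 0.25. TASTPM was at 0.887 of WT among the libraries with monocyte markers, without overlap, and at 0.904 among the others, with overlap. Acer2 had no read in any of the 4 WT libraries or in the 2 TASTPM libraries with monocyte markers, and 265 and 81 reads in the other 2 TASTPM libraries. Reads of Acer2 were found in 4 libraries of the 14, all of them TASTPM, and the TASTPM K/BxN ST mean was at least 28.1-fold above the level of 3 reads per library (two-sided exact permutation test, p = 0.429).

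**Figure D2:**
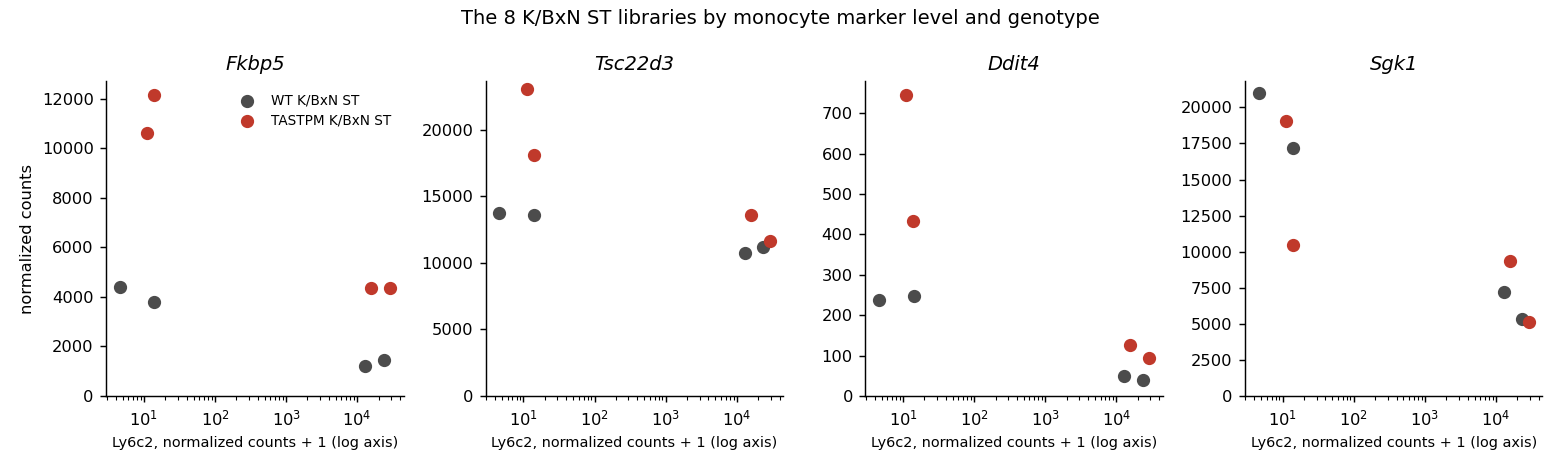
Normalized counts of Fkbp5, Tsc22d3, Ddit4 and Sgk1 (linear axes from 0) in the 8 K/BxN ST libraries against Ly6c2 on a log axis, by genotype. In Fkbp5, Tsc22d3 and Ddit4 the TASTPM points lie above the WT points on either side of the gap in Ly6c2, and in Sgk1 the 4 libraries at the right are lowest in both genotypes. Either side holds 2 libraries of each genotype, and the share of such an order over all genes was not counted.

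The response to K/BxN serum was compared within each genotype. Both comparisons share their Control ST libraries with the contrast in which the members were chosen, so a low WT Control ST value raises the contrast of genotypes and the serum contrast in WT together, and the values of the members are a description with no test. In WT, Tsc22d3 and Per1 were higher in every K/BxN ST library than in every Control ST library. The log2 difference of Tsc22d3 was 0.83 ± 0.27 (SE), from means of 7249 and 12314 normalized counts, and that of Per1 was 1.34 ± 0.46 (SE), from means of 94.3 and 221. Over all genes, limma called 1 (0.00791%), edgeR called 0 and DESeq2 127, 902 genes (7.13%) had an unadjusted p below 0.05 by limma, and every library of K/BxN ST lay above every one of Control ST for 3.67% of all genes. Without the 4 libraries with monocyte markers no gene was called by limma. Fkbp5 differed by 0.87 ± 0.49 (SE), Ddit4 by 1.25 ± 0.95, Klf9 by 2.65 ± 1.23, Sgk1 by -0.22 ± 0.46 and Nr3c1 by -0.22 ± 0.21 on the log2 scale, all with overlapping groups. Several of these values moved with the libraries used. Without the libraries with monocyte markers, Fkbp5 differed by 1.68 ± 0.30 (SE) and Ddit4 by 2.47 ± 0.89, and both remaining WT K/BxN ST libraries lay above all 3 WT Control ST libraries for each gene. In the same fit Tsc22d3 differed by 0.98 ± 0.27, Per1 by 1.40 ± 0.66, Klf9 by 1.92 ± 1.66, Sgk1 by 0.58 ± 0.27 and Nr3c1 by -0.03 ± 0.21. Without WT Control ST library 3 the differences were 0.49 for Tsc22d3, 0.87 for Per1 and 0.39 for Ddit4, and Ddit4 reached 2.03 without library 1 and 0.85 and 0.83 without WT K/BxN ST libraries 3 and 4. Klf9 differed by 1.08 without WT Control ST library 1, and Fkbp5 by 0.57 without WT K/BxN ST library 3.

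In TASTPM mice, whose Control ST libraries were also used to choose the members, the log2 differences between the sera were -0.01 ± 0.49 (SE) for Fkbp5, -0.27 ± 0.27 for Tsc22d3, -0.05 ± 0.46 for Per1, -0.58 ± 0.95 for Ddit4, -0.59 ± 0.46 for Sgk1 and -0.30 ± 0.21 for Nr3c1, and Klf9 stood at 0.67 ± 1.23. For Klf9 the means of the normalized counts lay the other way, 219 under K/BxN ST against 258 under Control ST, and for Fkbp5 they were 7875 and 7097. Over all genes limma called 0 (0%), with 533 (4.22%) at an unadjusted p below 0.05, and edgeR called 0 and DESeq2 16. Some directions differed without the libraries with monocyte markers. Without them Fkbp5 differed by 0.69, Ddit4 by 0.60 and Tsc22d3 by 0.08 on the log2 scale, against values below 0 with them, while Per1 differed by -0.14, Sgk1 by -0.08, Nr3c1 by -0.09 and Klf9 by 0.38. On leaving out 1 library, Sgk1 ran from -0.91 without TASTPM K/BxN ST library 4 to -0.27 without library 1, and Tsc22d3 from -0.45 to -0.12 without the same libraries. Ddit4 ran from -1.18 without TASTPM Control ST library 1 to -0.11 without TASTPM K/BxN ST library 1, and Klf9 from -0.22 without TASTPM Control ST library 1 to 1.81 without library 3.

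The interaction, the difference between the 2 serum responses, contains the contrast of genotypes under Control ST with its sign turned. A member chosen for a high TASTPM Control ST level is thereby drawn below 0 in it, so its values are given with no test and nothing is read from their sign. The interaction of Tsc22d3 was -1.10 ± 0.39 (SE), that of Per1 -1.39 ± 0.66, and without the libraries with monocyte markers they were -0.91 ± 0.39 and -1.54 ± 0.93. On leaving out 1 library, Ddit4 ran from -2.61 without WT Control ST library 1 to -0.97 without library 3, and Klf9 from -2.98 without WT Control ST library 3 to -0.41 without library 1. Over all genes limma called 0 in the interaction (0%, with 385 or 3.04% at an unadjusted p below 0.05), edgeR 0 and DESeq2 12.

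**Figure D3:**
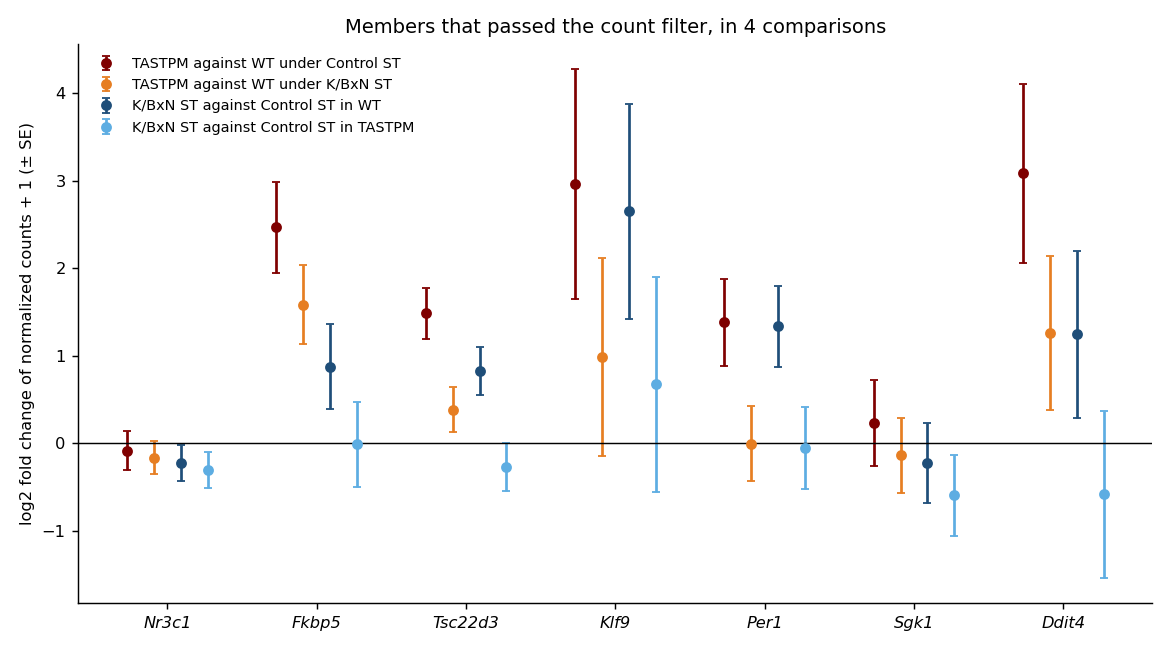
Log2 fold changes of normalized counts plus 1 (points) with standard errors (bars) for the 7 members that were tested, in TASTPM against WT under each serum and K/BxN ST against Control ST in each genotype. Fkbp5 stands at 2.47 and 1.59 in the 2 comparisons of genotypes, and Nr3c1 between -0.30 and -0.08 in all 4.

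Across the 14 libraries Fkbp5, Tsc22d3 and Ddit4 varied together, with Pearson r of 0.88 for Fkbp5 and Tsc22d3, 0.91 for Fkbp5 and Ddit4 and 0.92 for Tsc22d3 and Ddit4 on the log2 scale. Nr3c1 had r of -0.04 with Fkbp5 and 0.01 with Tsc22d3, and Klf9 and Sgk1 had r of -0.36 with each other. The 14 points share their groups, so these values hold the genotype difference again and carry no test. They also hold the classes of libraries within a genotype: under K/BxN ST, Ddit4 averaged 44.2 normalized counts where monocyte markers were high and 243 where they were not in WT, and 111 and 588 in TASTPM, and Fkbp5 was lower in the same libraries. The 5 genes outside the members whose levels were most like the mean of the 7 standardized members were Ppp1r21 (r = 0.924), Chka (0.892), Mlxip (0.891), Hif3a (0.891) and Lifr (0.890), over 14 libraries. Hif3a encodes an inhibitory relative of the hypoxia-inducible factors, Mlxip a glucose-sensing transcription factor, Chka choline kinase and Lifr the receptor of leukaemia inhibitory factor. Hif3a was at 0.937, 0 and 0 normalized counts in WT Control ST and at 57.5, 115 and 153 in TASTPM Control ST, and under K/BxN ST at 0, 0, 77.6 and 4.36 in WT and 5.20, 27.6, 148 and 38.4 in TASTPM. Lifr was at 1456, 1609 and 1374 normalized counts in WT Control ST and at 3141, 3396 and 3643 in TASTPM Control ST, without overlap. Under K/BxN ST it overlapped, at 1531, 1381, 2432 and 2607 in WT and at 1623, 2541, 4964 and 3220 in TASTPM. These genes follow members that were chosen by the Control ST contrast, so their levels there are a description.

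The machinery that holds and reads out the receptor was nearly all on the TASTPM side under Control ST, by small amounts. Of 17 tested genes of this list, 16 had a positive log2 difference, with a median of 0.27 against 0.04 over all genes, and 53.2% of all genes were positive. At an unadjusted p below 0.05, 4 of the 17 were higher, beside 3.41% of all genes, and none was called by limma. The list was written with earlier results of these data known. Hsp90ab1, the constitutive cytosolic Hsp90, was at 8812, 10003 and 10416 normalized counts in WT Control ST and at 14280, 15473 and 15405 in TASTPM Control ST. That is a log2 difference of 0.63 ± 0.19 (SE; adjusted p = 0.712, limma) with no overlap. Hsp90aa1, the inducible form, differed by 0.70 ± 0.31 (SE; adjusted p = 0.883), again without overlap. The co-chaperones Ptges3 and Stip1, picked out after their values were seen, differed by 0.63 ± 0.20 and 0.56 ± 0.23 (SE). The most abundant chaperone of the list, Hspa8, differed by 0.20 ± 0.31, the co-repressor Nrip1 by 0.03 ± 0.42 and the Mediator subunit Med1 by 0.25 ± 0.36.

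Under K/BxN ST, 11 of the 17 were positive with a median of 0.19, beside 49.9% of all genes. At an unadjusted limma p below 0.05, 4 had a higher level in TASTPM, beside 1% of all genes. Hsp90ab1 was at 11078, 8139, 9901 and 8169 normalized counts in WT under K/BxN ST and at 15128, 13765, 14676 and 10462 in TASTPM K/BxN ST. It differed by 0.53 ± 0.17 (SE) on the log2 scale with an unadjusted p of 0.00611 and an adjusted p of 1.00 (limma), and 1 TASTPM library lay within the WT range. Without the libraries with monocyte markers, 13 of the 17 were positive with a median of 0.29, beside 49.2% of all genes. There Hsp90ab1 differed by 0.46 ± 0.19 (SE), Med1 by 1.16 ± 0.43 and Hsp90aa1 by 0.31 ± 0.27. Over all 8 libraries, Hspa8 differed by 0.64 ± 0.26, Stip1 by 0.55 ± 0.20, Med1 by 0.67 ± 0.31 and Hsp90aa1 by 0.50 ± 0.27 (SE), none called. Ptges3 differed by 0.13 ± 0.18 (SE) with overlap, and by 0.0092 ± 0.22 without the libraries with monocyte markers.

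Other known induced targets were mostly on the same side. Of 25 tested, 20 had a positive log2 difference under Control ST, with a median of 0.51, beside 53.2% of all genes. Under K/BxN ST 22 were positive, with a median of 0.46, where 49.9% of all genes were positive and the median of all was 0.00. At an unadjusted limma p below 0.05, 5 and 2 of the 25 were higher in TASTPM under the 2 sera, beside 3.41% and 1% of all genes. Without the libraries with monocyte markers, 20 of 25 were positive under K/BxN ST, with a median of 0.37, beside 49.2% of all genes. None was called in either. Zbtb16, a zinc-finger repressor strongly induced by the hormone in many tissues, was at 87.2, 0 and 0 normalized counts in WT Control ST and at 59.5, 251 and 134 in TASTPM Control ST. Under K/BxN ST it was at 69.6, 81.5, 160 and 108 in WT and at 113, 220, 632 and 588 in TASTPM, with 1 library of overlap and a log2 difference of 1.63 ± 1.17 (SE; adjusted p = 1.00, limma). Within the libraries with monocyte markers TASTPM was 2.21-fold above WT, and within the others 4.55-fold. The 3 most abundant genes of the list were Rgs2, Txnip and Mertk. Rgs2, a brake on G-protein signalling, differed by 0.00 ± 0.23 and -0.37 ± 0.20 (SE) under the 2 sera, Txnip, the thioredoxin inhibitor, by -0.07 ± 0.28 and -0.22 ± 0.24, and Mertk, the phagocytic receptor, by -0.05 ± 0.47 and 0.05 ± 0.40. In the fit without the libraries with monocyte markers, Rgs2 differed by -0.14 ± 0.17, Txnip by 0.13 ± 0.22 and Mertk by 0.20 ± 0.23 under K/BxN ST. Sult1a1, a sulfotransferase, and Glul, glutamine synthetase, were picked out after their values were seen. They were higher in every TASTPM than in every WT library under Control ST, by 1.20 ± 0.41 and 0.85 ± 0.35 (SE; adjusted p = 0.748 and 0.819, limma), and differed by 0.87 ± 0.35 and 0.36 ± 0.30 under K/BxN ST.

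Inflammatory genes that the receptor is known to repress were split: 6 of 10 tested were negative under Control ST, with a median of -0.13, and 5 of 10 under K/BxN ST, with a median of 0.21. Icam1, the adhesion molecule, was at 5187, 5383 and 4553 normalized counts in WT Control ST and at 2868, 2212 and 4178 in TASTPM Control ST, a difference of -0.75 ± 0.31 (SE; adjusted p = 0.826, limma) without overlap. Under K/BxN ST it differed by -0.09 ± 0.27, and by 0.22 ± 0.29 without the libraries with monocyte markers, where 4 of the 10 genes were positive with a median of -0.28. The cytokine Il1a differed by -0.46 ± 0.51 and -0.60 ± 0.44 (SE) under the 2 sera, and the chemokine Ccl4 by -1.01 ± 1.40 and -0.28 ± 1.21. The means of Ccl4 under K/BxN ST lay the other way, 771 normalized counts in TASTPM against 401 in WT. Without the libraries with monocyte markers, Il1a differed by -0.22 ± 0.39 and Ccl4 by -3.04 ± 1.43 under K/BxN ST, where 1 TASTPM library held 7 reads of Ccl4. The cytokine Il1b, named after its values were seen, went the other way, by 2.21 ± 1.74 (SE) over all 8 libraries and by 3.45 ± 1.25 without those with monocyte markers (adjusted p = 1.00 in both, limma), where 1 WT library held 1 read. Cxcl10, an interferon-induced chemokine, was at 0, 278 and 209 normalized counts in WT Control ST and 153, 298 and 115 in TASTPM Control ST, a log2 difference of 2.17 ± 2.12 (SE), and its direction under K/BxN ST was the opposite, -3.53 ± 1.84 (SE) with 2 TASTPM libraries at 0, and -6.20 ± 2.30 without the libraries with monocyte markers.

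Per1 is also a clock gene, and the other clock genes were split, with 7 of 13 tested positive under Control ST and 6 of 13 under K/BxN ST, or 7 of 13 without the libraries with monocyte markers. Per2, its paralog, was at 0, 46.1 and 0 normalized counts in WT Control ST and at 49.1, 45.5 and 77.2 in TASTPM Control ST, and Nr1d1, the haem-binding repressor, at 0, 2.51 and 44.9 against 132, 30.0 and 60.9. Both were near the level of a few reads in several libraries. The most abundant clock genes were Bhlhe41, Tef and Clock, whose log2 differences under Control ST were -0.54 ± 0.58, 0.42 ± 0.35 and 0.93 ± 0.57 (SE).

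Ddit4 is induced by stress as well as by the hormone, and Klf9 and Per1 can respond to immediate early signals, so those genes were listed too. Of 9 stress genes tested, 6 were positive under Control ST and 3 under K/BxN ST, with medians of 0.07 and -0.12, and 4 without the libraries with monocyte markers. Atf4, the amino acid response factor, differed by 0.05 ± 0.20 and -0.12 ± 0.17 (SE), and the hypoxia gene Bnip3 by 0.22 ± 0.30 and 0.06 ± 0.26. Slc2a1, the glucose transporter, was lower in every TASTPM than in every WT library under Control ST (-0.65 ± 0.23, SE; adjusted p = 0.750, limma) and higher in every one under K/BxN ST (0.42 ± 0.20; adjusted p = 1.00). Ndrg1 differed by -3.08 ± 2.37 (SE) under Control ST and Ankrd37 by -2.18 ± 1.53 under K/BxN ST, both with libraries at 0. Without the libraries with monocyte markers, Atf4 differed by -0.25 ± 0.26, Bnip3 by 0.50 ± 0.37 and Ankrd37 by -3.80 ± 2.31 under K/BxN ST.

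Of 13 immediate early and dissociation genes tested, 10 were positive under Control ST and 7 under K/BxN ST, with medians of 0.27 and 0.03, and 10 without the libraries with monocyte markers, with a median of 0.32. The 3 most abundant of them had small differences: Klf6, Btg2 and Junb differed by 0.12 ± 0.20, 0.08 ± 0.21 and -0.31 ± 0.27 (SE) under Control ST. Klf4 had 0 reads in all 3 WT Control ST libraries and 80, 91 and 98 reads in TASTPM Control ST, at least 31.8-fold above the level of 3 reads (adjusted p = 0.357, limma). Under K/BxN ST it was at 231, 112, 39.4 and 5.45 in WT and at 153, 128, 338 and 39.5 in TASTPM, with overlap. Fos was at most 67.8 normalized counts in the Control ST libraries and between 354 and 1697 in the 4 libraries with monocyte markers. In the other K/BxN ST libraries it was at 1.19 and 1.09 in WT, 1 read each, and at 51.7 and 161 in TASTPM. Its log2 difference between genotypes under K/BxN ST was 3.11 with a 95% interval of -1.38 to 7.60, and 5.43 ± 2.20 (SE) without the libraries with monocyte markers (adjusted p = 1.00 in both, limma).

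Paralogs of the members were listed as relatives of similar sequence. Fkbp4, the co-chaperone that acts opposite to Fkbp5 on the receptor, differed by 0.30 ± 0.23 and 0.28 ± 0.20 (SE) under the 2 sera. Tsc22d4 differed by -0.21 ± 0.20 and -0.08 ± 0.18, Acer3 by -0.20 ± 0.16 and -0.07 ± 0.14, and the scarce Tsc22d1 by 1.66 ± 1.48 and 0.70 ± 1.28. The means of Tsc22d1 under Control ST lay the other way, 136 normalized counts in TASTPM against 145 in WT, where 1 library had 0 reads. Under K/BxN ST and without the libraries with monocyte markers, Fkbp4 differed by 0.19 ± 0.27, Tsc22d4 by 0.19 ± 0.24 and Acer3 by -0.20 ± 0.18, and Tsc22d1 by 0.45, less than its standard error. Of 10 tested, 7 were positive under Control ST and 6 under K/BxN ST, or 7 without the libraries with monocyte markers, and none was called by limma.

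**Figure D4:**
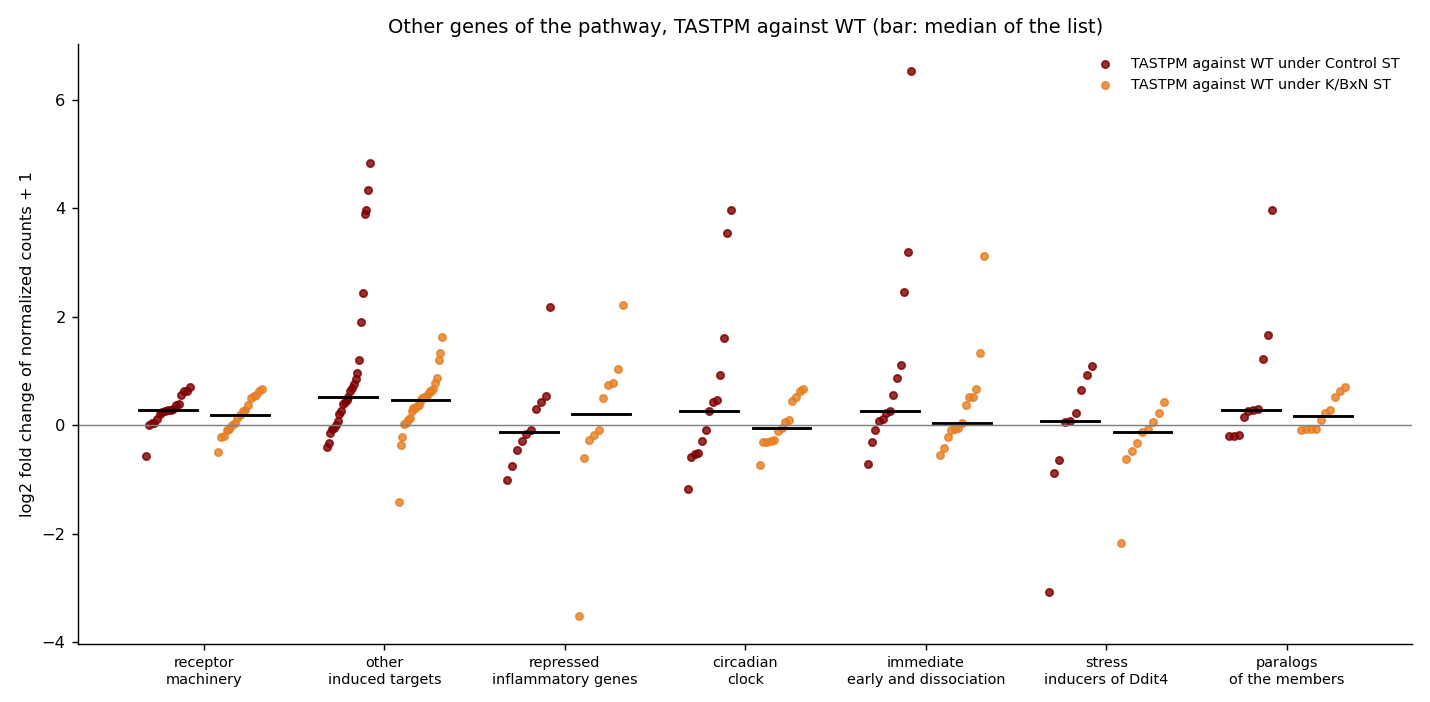
Log2 fold changes of normalized counts plus 1 in TASTPM against WT under Control ST and K/BxN ST for every tested gene of 7 lists (points) with the median of each list (bar). The medians of receptor machinery are 0.27 and 0.19 and those of the other induced targets 0.51 and 0.46, while points far from 0 include genes with no reads in some libraries, such as Klf4 at the top, whose fitted value is no bound.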

How the data were processed

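The authors aligned reads to GRCm39 with HISAT2 2.1 and counted them per gene with featureCounts 1.5.2, after amplification with a SMART-Seq kit. What they deposited is a signal, namely counts scaled by 1 factor per library. All values (100%) came out as whole reads to within 0.05 of a read, which gave back the counts, and the scaling correlated with recomputed DESeq2 size factors (Pearson r = 0.9992). Groups were read from the heading above each column. TASTPM K/BxN ST libraries carry the numbers of the labels, and for the other groups values follow the column order. Of 14336 entries, 7 repeated an identifier and were left out.

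Values were tested as log2 of the normalized count plus 1. For scarce genes this can give a change smaller or larger than that of the group means, or opposite to it. limma 3.58.1 (R 4.3.3), with the prior variance following the mean level, was fitted on 12645 genes with all 4 groups sharing 1 estimate of the spread, and p values were adjusted by Benjamini-Hochberg over all of them. edgeR 4.0.16 and DESeq2 1.42.0 were run on the recovered reads as alternatives, beside other scalings, pseudocounts, filters, covariates and omitted libraries. Omission of the 4 libraries with monocyte markers was chosen after seeing the data. Exact permutation tests were two-sided and used 70 splits, with a smallest p of 0.0286. The fit was tested on simulated data of TASTPM against WT under K/BxN ST. There 159 of 200 genes changed by 3 on the log2 scale were called, with 3 false calls, and no smaller change was simulated. A floor of 3 reads per library stood for a count of 0 and covers counting error only.

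The members and lists were chosen with earlier results of these data known. Named genes were all members and, from each list, any gene called, the 3 with the highest mean and the one with the largest change in each comparison of genotypes. Ptges3, Stip1, Sult1a1, Glul, Il1b and several single markers of other cells lie outside that rule and were named after their values were seen. Gene positions and exon lengths came from a GRCm39 annotation later than that of the authors, and promoters from RefSeq. Annotated genes overlap each member but Ddit4, and the kit does not mark strand, so reads of overlapping exons cannot be told apart.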

Additional observations from a re-analysis of the deposited data

How the results depend on the processing

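No paired analysis was possible because the labels number the libraries through the series and share no replicate number between groups. Counts of genes called changed most. TASTPM against WT had 0 to 0 calls under K/BxN ST on leaving out 1 library. Under Control ST it had 0 calls, 1 with the blood marker or sex-linked covariate, 41 with DESeq2 and 0 to 11 on leaving out 1 library, the most without WT Control ST library 3 (11) or 2 (9). The serum comparison in WT had 1 call, 0 with a pseudocount of 8, only the groups compared, the blood marker covariate, edgeR or without the 4 libraries with monocyte markers, 127 with DESeq2 and 0 to 17 on leaving out 1, the most again without WT Control ST library 3 (17) or 2 (14). In TASTPM there were 16 with DESeq2 and 0 to 1 on leaving out 1, and for the interaction 12 with DESeq2 and 0 to 3 on leaving out 1. The cause was not tested.

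No member was called in TASTPM against WT under K/BxN ST under any alternative run. Between genotypes under K/BxN ST, Fkbp5, Tsc22d3, Ddit4 and Klf9 stayed above 0 and Nr3c1 below 0 under every alternative run. Under Control ST, Fkbp5, Tsc22d3, Ddit4, Klf9 and Per1 stayed above 0. The members were chosen by that contrast, so nothing is read from their sign there. Other values changed sign under some alternatives, most of them smaller than their standard errors. Between genotypes under K/BxN ST, Per1 was 0.0079 with library totals, 0.00093 with DESeq2 and -0.094 to 0.14 on leaving out 1 library, and Sgk1 0.15 with the sex-linked covariate and -0.48 to 0.18 on leaving out 1. Sgk1 under Control ST was -0.36 with the sex-linked covariate. In WT, the serum difference of Sgk1 was 0.41 with the blood marker covariate, 0.58 without the 4 libraries and -0.54 to 0.12 on leaving out 1. In TASTPM, the blood marker covariate gave Fkbp5 0.72, Tsc22d3 0.0085, Sgk1 0.11 and Ddit4 0.65, the sex-linked covariate Fkbp5 0.43 and Sgk1 0.014, library totals Fkbp5 0.013, edgeR Fkbp5 0.15 and Klf9 -0.23, DESeq2 Fkbp5 0.15 and Klf9 -0.23, and omission of the 4 libraries Fkbp5 0.69, Tsc22d3 0.077 and Ddit4 0.60. On leaving out 1 library there, Fkbp5 ran from -0.27 to 0.22, Per1 from -0.42 to 0.23 and Klf9 from -0.22 to 1.81. In the interaction the sex-linked covariate gave Nr3c1 0.063 and Sgk1 0.51, and leaving out 1 library gave Nr3c1 -0.24 to 0.029. Nr3c1 between genotypes under Control ST ran from -0.18 to 0.08 on leaving out 1 library.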
